A study of Mus musculus with 32 samples.

Results

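The nuclear-encoded oxidative phosphorylation (OXPHOS) genes are 75 of the 55291 gene symbols counted in mouse colon and colon tumors. They were chosen by symbol alone, as the subunits of respiratory complexes I to V that follow standard naming patterns, and 6 further symbols marked as pseudogenes were left out. Complex I gave 35 members, complex II 4, complex III 8, complex IV 11 and complex V 17. All 75 passed the filter on low counts in every comparison. They lie on 19 chromosomes. Of the 75, 37 share at least 1 stretch of 75 bases (the read length) with another annotated gene, 15 of them over 10% of their stretches, and 28 have exon bases in another gene, so their counts may be split or shared.

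RNA came from whole colon of *Dnase1l3*-KO and WT mice (C57BL/6 background) and from their tumors, in 32 libraries of 8 groups. The KO is constitutive in the whole body. KO and WT colons were taken at D0 from untreated mice (n = 4 each). Treated mice received azoxymethane (AOM, a colon carcinogen, 8 mg/kg) and then dextran sulfate sodium (DSS, which injures the epithelium). Their colons were taken at D19 after 1 cycle of DSS with 5 days of recovery (n = 4 each). At D80 colons were taken after 3 cycles of DSS, with a longer recovery than at D19 (n = 4 each). Tumors were isolated after the 3 cycles from KO (n = 3) and WT mice (n = 5). Mice of this model were 3 months old at the AOM injection. Each library was 1 mouse, and 3 mice of each genotype gave both a D80 colon and a tumor. No mouse gave libraries at more than 1 of D0, D19 and D80, and the treated mice carry other label prefixes than the D0 mice, so stage and prefix cannot be told apart.

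OXPHOS runs in the inner mitochondrial membrane. Complexes I and II pass electrons from NADH and succinate to ubiquinone, complex III passes them to cytochrome c and complex IV to oxygen, and complex V (ATP synthase) uses the resulting proton gradient to make ATP. A small core of the subunits of complexes I, III, IV and V is encoded in mitochondrial DNA, and the 75 members are the nuclear part, which includes catalytic subunits and many small accessory (supernumerary) ones. In healthy colon, surface colonocytes oxidize short-chain fatty acids such as butyrate by this route, and smooth muscle is also rich in mitochondria.

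The promoters of these genes are known in mammals for sites of NRF1, of ETS-family factors such as GABP, of YY1 and of ERRα. Promoter windows of 300 bases from RefSeq (GRCm38.p6, 250 bases before the start and 50 after) matched 63 of the 75 members, and 27025 such windows of all genes served for comparison. The NRF1 motif GCGCANGCG was found, on either strand, in 19 of the 63 (30.2%), against 6.5% of all windows. The ETS motif CCGGAAG was found in 16 (25.4%), against 9.1%, the YY1 motif AAGATGGCG in 6 (9.5%), against 1.5%, and the ERR motif TCAAGGTCA in 2 (3.2%), against 0.4%. The Sp1 motif GGGCGG, in 25 (39.7%), against 35.9%, was about as frequent as elsewhere. The motifs were counted independently of one another and may overlap. A stretch before the start of 1 gene of each complex is printed to show these sites in genes that fell after treatment, with the match in capitals. All are on the minus strand and written 5′ to 3′ along the gene, and CTTCCGG is the ETS motif read on the other strand.
Ndufs5 (complex I), chr4:123718203-123718322, NRF1: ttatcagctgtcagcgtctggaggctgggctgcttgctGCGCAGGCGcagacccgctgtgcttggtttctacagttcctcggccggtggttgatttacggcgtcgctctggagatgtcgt
Sdhd (complex II), chr9:50603850-50603909, ETS: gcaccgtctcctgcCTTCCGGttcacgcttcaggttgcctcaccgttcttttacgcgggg
Uqcr11 (complex III), chr10:80406831-80406950, ETS: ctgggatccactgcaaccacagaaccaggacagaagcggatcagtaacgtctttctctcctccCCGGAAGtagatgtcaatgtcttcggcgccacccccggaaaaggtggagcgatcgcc
Cox6a1 (complex IV), chr5:115348982-115349101, NRF1: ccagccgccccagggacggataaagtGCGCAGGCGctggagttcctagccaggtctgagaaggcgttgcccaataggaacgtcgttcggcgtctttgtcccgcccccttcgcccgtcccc
Atp5e (complex V), chr2:174464106-174464225, ETS: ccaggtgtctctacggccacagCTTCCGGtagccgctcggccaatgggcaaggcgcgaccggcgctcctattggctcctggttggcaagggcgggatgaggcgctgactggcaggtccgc
A match is a string of letters and not a measured binding site.

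The 32 libraries held between 18951121 and 47623288 counts (median 34333250.5), of which the members took 1.26% to 2.29%. In 3 libraries, 1 each of KO D19 (mouse 811), WT D80 (mouse 581) and KO tumor (mouse 544), short transcripts were high. The deviation of each gene from the mean of the other libraries of its group fell with gene length (all exon bases together). Spearman's rho was -0.64, -0.62 and -0.45 across 13299 genes, against -0.33 to 0.62 in the other 29. The 0.62 was the KO D19 colon of mouse 804, whose reference mean includes mouse 811. Ribosomal protein mRNAs took 8.74%, 7.56% and 12.4% of the counts of the 3 libraries, against 4.19% to 7.23% in the other 29. The members took 2.29%, 2.02% and 1.95%, against 1.26% to 2.14%. In summed level of the members each was the highest of its group, so results that rest on these 3 libraries are given with and without them. They were picked out with results of these data known. *Dnase1l3*, a secreted DNase, was counted at 0.675 to 11.8 CPM in the KO groups and 1.79 to 10.4 CPM in the WT groups; the counts cover the whole gene and not the deleted part alone, so they do not check the genotype labels.

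**Figure D1:**
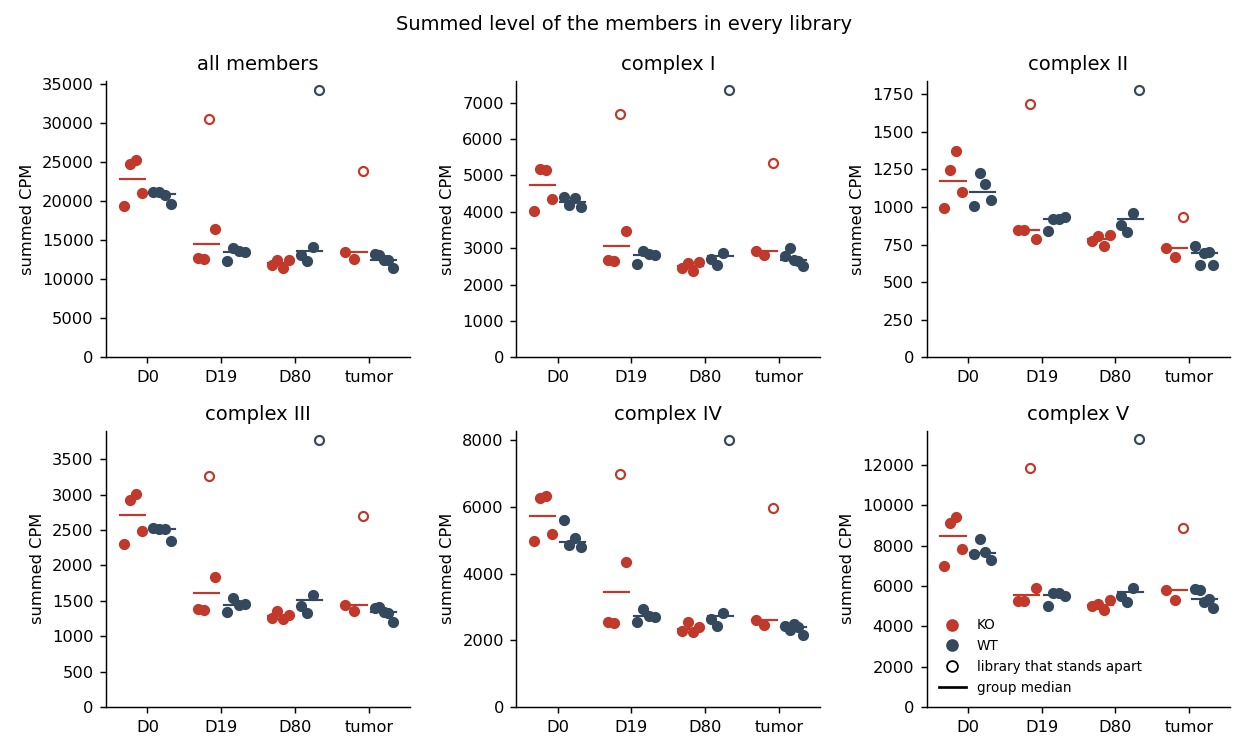
Summed level of all members and of each complex (vertical axes, CPM) in every library, by stage (horizontal axis), with KO left of WT. Each point is 1 library, lines are group medians, and open points are the 3 libraries that stand apart; all other treated colons and tumors lie between 11363.8 and 16335.1 CPM for all members, below every D0 library (19272.6 to 25279.3).

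Levels are given as CPM (counts scaled to a common library size, with TMM factors over the 32 libraries). At D0 the members together held 19272.6 to 25279.3 CPM in KO colons and 19627 to 21117.8 CPM in WT colons. Per kilobase of transcript, the median member of complex IV was the most abundant, at 731 CPM per kb in KO and 624.7 in WT colons. Complex V followed at 416 in KO and 379 in WT, complex III at 355 and 332, complex II at 154 and 148, and complex I at 121 and 113 CPM per kb. The highest single level per length was that of *Cox4i1*, a subunit at which complex IV is regulated, with 1345 ± 200.3 CPM per kb in KO and 1191 ± 93.0 in WT colons (SD, n = 4 each), while *Ndufs1*, the large iron-sulfur subunit of complex I, stood at 37.7 ± 4.53 in KO and 39.7 ± 6.96. Levels per length depend on the transcript taken as the principal one.

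Whether loss of *Dnase1l3* alone altered these genes was asked at D0. Of 75 members 0 were called (adjusted p under 0.05 in edgeR's quasi-likelihood test), where 0% of all 18175 genes were called. At an unadjusted p under 0.05 there were also 0 members, against 9.63% of all genes, and DESeq2 called 0 members. The median member had a log2 fold change of 0.14 (KO over WT), against 0.01 over all genes, and the members ranged from -0.06 to 0.29. *Cox4i1* had 894, 1152, 1170 and 898 CPM in KO colons, against 1005, 843, 924 and 872 CPM in WT colons, and *Sdha*, the succinate-oxidizing flavoprotein of complex II, had 275, 342, 406 and 301 CPM in KO colons, against 273, 396, 332 and 313 CPM in WT colons. The groups overlapped in both genes, and in all other members.

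After 1 cycle of AOM/DSS and 5 days of recovery, the members fell in WT colons. Of 75, 67 were lower at D19 than at D0 and 0 higher, where 22.6% of all genes were called lower and 24.2% higher. The median log2 fold change was -0.82, against 0.00 over all genes, which puts the median member at 56.8% of its D0 level. The members together held 12302.2 to 14007.2 CPM in WT D19 colons, against 19627 to 21117.8 CPM in WT D0 colons, and 67 members lay lower in each of the 4 D19 libraries than in each of the 4 D0 libraries, as did 18.6% of all genes tested. In bulk tissue, fewer cells of a kind and less RNA per cell cannot be told apart.

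The 3 largest falls in WT colons at D19 were in *Atp5e*, *Ndufb8* and *Cox4i1*. *Atp5e*, the epsilon subunit in the central stalk of ATP synthase (GRCm38 chromosome 2, 174461072 to 174464105, minus strand), had 110, 125, 124 and 126 CPM at D19, against 400, 251, 289 and 297 CPM at D0, and each D19 colon lay below each D0 colon. That is -1.40 on the log2 scale (SE 0.14, adjusted p = 8.99e-05). *Ndufb8*, an accessory subunit in the membrane arm of complex I (chromosome 19, 44548572 to 44555440, minus strand), had 63.3, 75.8, 74.6 and 73.3 CPM at D19, against 184, 157, 171 and 162 CPM at D0. It fell by 1.28 on the log2 scale (SE 0.08, adjusted p = 3.12e-05), again without overlap. *Cox4i1* (chromosome 8, 120668222 to 120674207, plus strand) had 381, 418, 386 and 378 CPM at D19, against 1005, 843, 924 and 872 CPM at D0. On the log2 scale it fell by 1.26 (SE 0.10, adjusted p = 4.46e-05), and 9.9% of its exon bases also lie in *Emc8*.

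By complex, all 11 members of complex IV fell (median -0.92), as did 7 of 8 of complex III (-0.92), 15 of 17 of complex V (-0.83), 31 of 35 of complex I (-0.71) and 3 of 4 of complex II (-0.43). *Uqcr11*, a small subunit of complex III, had 91.5, 106, 105 and 103 CPM at D19, against 224, 193, 200 and 193 CPM at D0 (log2 fold change -1.04, SE 0.08, adjusted p = 4.83e-05). *Uqcrfs1*, the Rieske iron-sulfur protein that carries electrons in complex III, fell less, by 0.83 on the log2 scale (SE 0.10, adjusted p = 0.000212), and *Uqcrc1*, a core protein of the same complex, by 0.85 (SE 0.13, adjusted p = 0.000752). *Cox5a*, an accessory subunit of complex IV, fell by 0.91 (SE 0.09, adjusted p = 0.000103) and *Atp5k*, subunit e of the ATP synthase membrane part, by 1.15 (SE 0.10, adjusted p = 6.05e-05). *Cox6a1*, a complex IV subunit with a printed NRF1 match, had 308, 366, 349 and 345 CPM at D19, against 647, 673, 672 and 642 CPM at D0 (-0.99, SE 0.09, adjusted p = 6.36e-05). In complex II, *Sdhc*, a membrane anchor, fell by 0.75 (SE 0.09, adjusted p = 0.000187) and *Sdhb*, the iron-sulfur subunit, by 0.35 (SE 0.10, adjusted p = 0.0153).

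The 8 members that did not pass the test in WT colons at D19 included several catalytic subunits. They were *Ndufv1*, which binds NADH, *Ndufs1*, *Ndufa9* and *Ndufa10* of complex I, *Sdha*, *Uqcrc2*, and *Atp5a1* and *Atp5b*, the alpha and beta subunits that form the catalytic head of ATP synthase. *Sdha* (chromosome 13, 74322254 to 74350280, minus strand) had 334, 352, 344 and 348 CPM at D19, against 273, 396, 332 and 313 CPM at D0, which is 0.03 on the log2 scale (SE 0.12, adjusted p = 0.872). *Ndufs1* (chromosome 1, 63143596 to 63176833, minus strand) had 103, 112, 113 and 117 CPM at D19, against 89, 131, 105 and 96.3 CPM at D0. Both genes stayed within the range of the D0 colons. *Atp5a1* had 1063, 1183, 1246 and 1198 CPM at D19, against 1072, 1630, 1344 and 1234 CPM at D0 (log2 fold change -0.22, SE 0.14, adjusted p = 0.22). Of the core subunits of complex I that reduce ubiquinone, all 4 fell, with a median of -0.47, against a median of -0.82 over the 28 accessory subunits. All 8 members not called have principal transcripts of 1445 nt or more, and role and transcript length were not separated here.

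**Figure D2:**
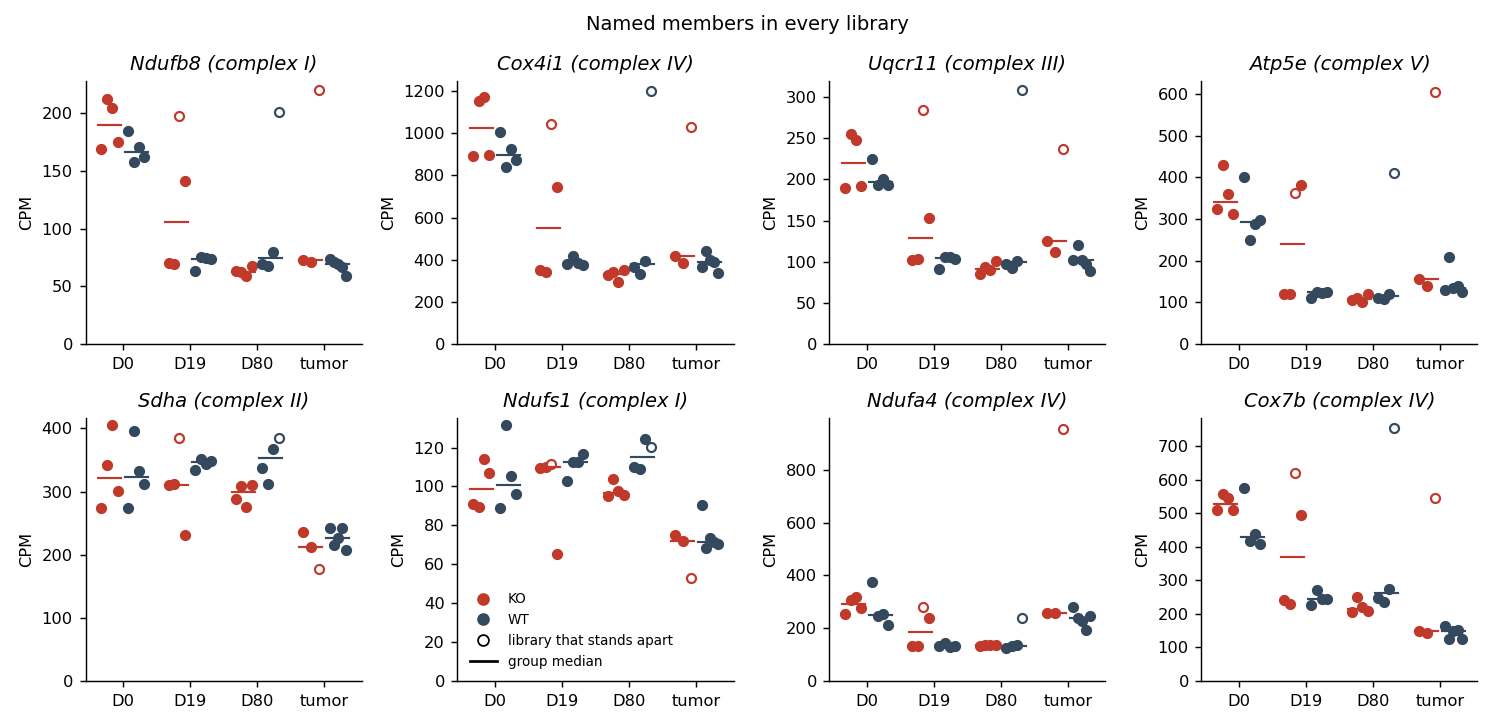
Level of 8 members (vertical axes, CPM) in every library by stage (horizontal axis), with KO left of WT; each point is 1 library, lines are group medians and open points are the libraries that stand apart. *Ndufb8*, *Cox4i1*, *Uqcr11* and *Atp5e* lie lower after D0 outside the open points and KO mouse 813 at D19. *Sdha* and *Ndufs1* are lower in tumors than at D80. Outside the open points, *Ndufa4* is higher in tumors than at D80 and *Cox7b* lower.

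In KO colons at D19 the result turned on 1 library. With all 4 libraries, 1 member fell and 0 rose, where 3.43% of all genes were called lower and 9.61% higher, and the median was -0.33, against 0.03 over all genes. The member was *Uqcrc1* (chromosome 9, 108936633 to 108949623, plus strand), with 169, 168, 249 and 200 CPM at D19, against 266, 351, 389 and 314 CPM at D0 (log2 fold change -0.76, SE 0.22, adjusted p = 0.0463). *Cox4i1* had 352, 344, 1044 and 746 CPM in KO D19 colons, against 894, 1152, 1170 and 898 CPM in KO D0 colons, with the 1044 CPM in mouse 811 and the 746 CPM in mouse 813. Without mouse 811, 59 members fell and 0 rose, where 10.7% of all genes were called lower and 16.5% higher, and the median was -0.75. *Uqcrfs1* then had the smallest p among the members, with 178, 172 and 179 CPM at D19, against 265, 334, 388 and 309 CPM at D0 (log2 fold change -0.90, SE 0.16, adjusted p = 0.00245). *Ndufs5*, a small subunit of complex I whose promoter stretch is printed above, had 43.8, 43.3 and 50.8 CPM at D19, against 66.1, 81.8, 87.8 and 71.8 CPM at D0 (-0.77, SE 0.14, adjusted p = 0.00302), and 15.7% of its 75-base stretches also occur in other genes. Of the 59, 58 were also among the 67 that fell in WT colons, which is 98.3% of the KO list and 86.6% of the WT list. These comparisons share no library. With 67 of the 75 members on the WT list, most of any list of members would overlap it, so no conclusion is drawn from the overlap. Mouse 813 was high in short members as well, with 382 CPM of *Atp5e* against 120 and 121 CPM in mice 803 and 804, but low in *Ndufv1*, with 88.3 CPM against 126 and 126. Without both mice, 68 members were called lower, where 17% of all genes were, and the median was -0.99, on 2 KO libraries.

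After 3 cycles, 71 of 75 members were lower in KO colons at D80 than at D0 and 0 higher, where 24.8% of all genes were called lower and 28.4% higher. The median log2 fold change was -1.07, against 0.02 over all genes, or 47.5% of the D0 level. Together the members held 11415.7 to 12428 CPM in KO D80 colons, against 19272.6 to 25279.3 CPM in KO D0 colons, and 68 members lay lower in each D80 than in each D0 library, as did 20.4% of all genes tested. *Atp5e* had 106, 110, 101 and 120 CPM at D80, against 324, 430, 359 and 311 CPM at D0 (log2 fold change -1.75, SE 0.11, adjusted p = 4.92e-06). *Cox4i1* had 328, 341, 296 and 350 CPM, against 894, 1152, 1170 and 898 CPM (-1.69, SE 0.12, adjusted p = 7.29e-06). *Ndufb8* had 63.3, 62.4, 58.7 and 67.7 CPM, against 169, 212, 204 and 175 CPM (-1.64, SE 0.10, adjusted p = 3.53e-06). The D80 colons of these 3 genes were close to one another, and each lay below each D0 colon.

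All members of complexes III and IV fell at D80 in KO colons, with medians of -1.19 and -1.28, and 16 of 17 of complex V (-1.08), 33 of 35 of complex I (-1.01) and 3 of 4 of complex II (-0.78). *Uqcr10*, a small subunit of complex III, fell by 1.32 on the log2 scale (SE 0.10, adjusted p = 8e-06), *Ndufb9*, an accessory subunit of complex I, by 1.64 (SE 0.11, adjusted p = 4.48e-06), and *Sdhd*, the other membrane anchor of complex II, by 0.85 (SE 0.09, adjusted p = 4.52e-05). The 4 members not called were *Ndufs1*, *Ndufa10*, *Sdha* and *Atp5a1*, all 4 also uncalled in WT colons at D19. *Sdha* had 288, 309, 276 and 311 CPM at D80, against 275, 342, 406 and 301 CPM at D0 (-0.20, SE 0.12, adjusted p = 0.181). Its partner *Sdhb* had 134, 150, 136 and 144 CPM, against 183, 225, 265 and 217 CPM (-0.70, SE 0.11, adjusted p = 0.000562). The catalytic head of ATP synthase was near the threshold, with *Atp5b* at -0.36 (SE 0.12, adjusted p = 0.0318) and *Atp5a1* at -0.30 (SE 0.13, adjusted p = 0.0836).

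In WT colons at D80, 0 of 75 members were called with all 4 libraries, where 4.32% of all genes were called lower and 8.57% higher. The edgeR test gave 2 members an unadjusted p under 0.05, *Ndufa4* and *Uqcrc1*, and DESeq2 called 0. *Cox4i1* had 366, 331, 393 and 1202 CPM at D80, against 1005, 843, 924 and 872 CPM at D0, and the 1202 CPM was mouse 581. Without that mouse, 67 members fell and 0 rose, where 23.3% of all genes were called lower and 25% higher, with a median of -0.83. The members together held 12360.9 to 14097.6 CPM in these 3 colons and 34175 CPM in mouse 581. *Cox4i1* then fell by 1.38 (SE 0.12, adjusted p = 7.94e-05), *Atp5e* by 1.51 (SE 0.15, adjusted p = 0.000149), *Ndufb8* by 1.28 (SE 0.10, adjusted p = 6.35e-05), *Uqcr11* by 1.11 (SE 0.09, adjusted p = 6.84e-05) and *Sdhc* by 0.73 (SE 0.10, adjusted p = 0.000459). All 67 were also called lower in KO colons at D80, which is 94.4% of the KO list. That list held 71 of the 75 members, so a near-complete overlap follows from its size.

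**Figure D3:**
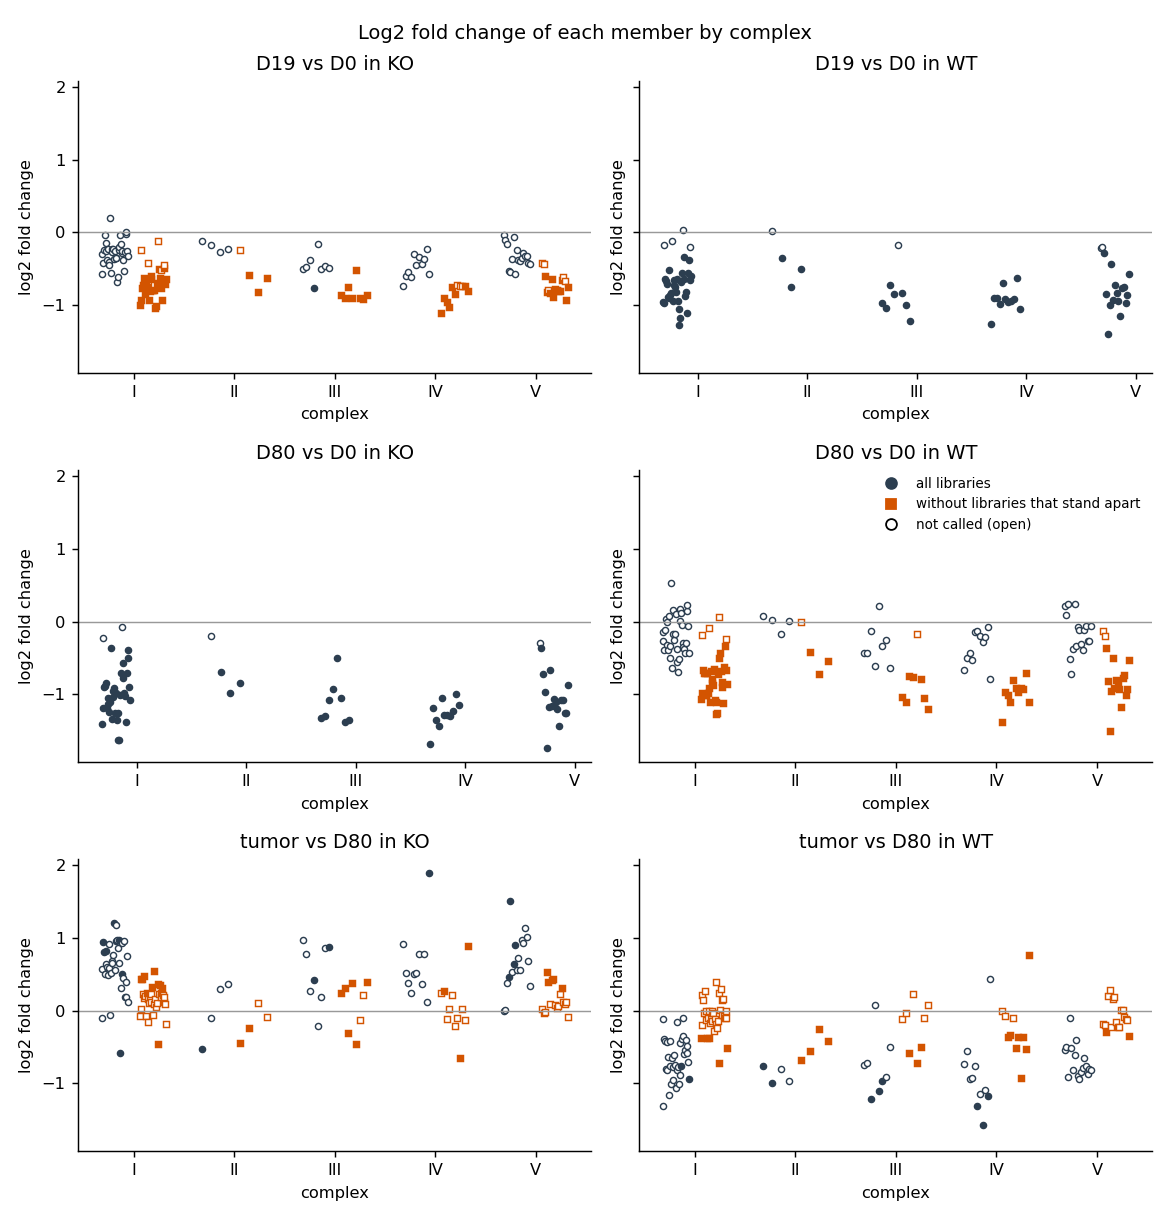
Log2 fold change of each member (vertical axes) by complex (horizontal axes) in 6 comparisons, later stage or tumor over its reference, for KO (left) and WT (right). Circles are fits on all libraries and squares fits without the libraries that stand apart, filled where called; all filled symbols lie below 0 at D19 and D80, and in tumors they lie on both sides.

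Whether the 2 genotypes differed at each treated stage was tested directly. At D19, 0 members were called between KO and WT colons, where 0% of all genes were called, and without mouse 811 the counts were again 0 members and 0%. DESeq2 called 0 members with all libraries. At an unadjusted p under 0.05 there were 4 members, *Atp5e*, *Atp5k*, *Uqcrq* and *Ndufs4*, against 11.3% of all genes, and without mouse 811 there was 1, *Sdha*, against 16.6%. The median was 0.61 with all libraries (label prefix as a block 0.48, and 0.60 within the prefixes 115 and 116, which both genotypes share) and 0.09 without mouse 811. *Sdha* had 310, 311, 385 and 232 CPM in KO D19 colons, against 334, 352, 344 and 348 CPM in WT D19 colons, and the log2 fold change without mouse 811 was -0.29 (SE 0.12, adjusted p = 0.294 in edgeR).

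At D80, 0 members were called between KO and WT colons, where 0% of all genes were called with all libraries and 0% without mouse 581. The median was -0.80 with all libraries, -0.13 without mouse 581 and -0.10 in a fit blocked on the label prefix. Without mouse 581, 14 members had an unadjusted p under 0.05 in edgeR, against 10.5% of all genes, and 73 of 75 had a negative log2 fold change, in a range from -0.23 to 0.04. *Uqcrfs1* had 158, 169, 153 and 163 CPM in KO D80 colons, against 175, 176, 212 and 435 CPM in WT D80 colons, with 435 CPM in mouse 581 (without it, -0.23, SE 0.08, adjusted p = 0.447). It was 1 of 9 members that lay lower in each KO colon than in each WT colon, with or without mouse 581, against 1.91% of all genes with it and 4.23% without. DESeq2 called 0 members with all libraries.

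In tumors, 0 members were called between KO and WT mice, where 0% of all genes were called with all libraries and 0% without mouse 544, and DESeq2 called 0 members with all libraries. The median was 0.59 with all libraries and 0.06 without mouse 544. With all libraries 27 members had an unadjusted p under 0.05, led by *Ndufb6*, *Ndufa4* and *Atp5e*, against 6.61% of all genes, and without mouse 544 there were 0, against 1.26%. *Ndufa4* had 257, 257 and 957 CPM in KO tumors, against 279, 239, 228, 195 and 246 CPM in WT tumors, with the 957 CPM in mouse 544. For *Sdha* the KO tumors had 236, 212 and 178 CPM, against 242, 215, 226, 243 and 207 CPM in WT tumors (log2 fold change -0.08, SE 0.15, adjusted p = 0.866).

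The difference between the genotypes in each stage effect (the interaction) was called for 0 members at D19, where 0.0298% of all genes were called with all libraries and 0.166% without mouse 811. It was called for 0 members at D80 and 0 in tumors, where 0% of all genes were called in each, with all libraries and without those that stand apart. The median interaction was 0.44 at D19 with all libraries and -0.01 without mouse 811. At D80 it was -0.86 with all libraries and -0.25 without mouse 581, and all 75 members then had a negative value, 16 of them with an unadjusted p under 0.05. For tumors it was 1.36 with all libraries and 0.21 without mice 581 and 544. Members with an unadjusted p under 0.05 in edgeR were 0, 21 and 63 at D19, at D80 and in tumors with all libraries, and 1, 16 and 9 without the libraries that stand apart. The shares of all genes were 8.15%, 7.84% and 11.7% with all libraries and 13.8%, 8.28% and 4.11% without, and DESeq2 called 0 members with all libraries in each.

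The size of the fall tracked transcript length. Across the 75 members, Spearman's rho of the log2 fold change with the length of the principal transcript was 0.56 in WT colons at D19 and 0.63 in KO colons at D80, as a description over genes, which are not independent replicates. The 44 members under 1000 nt had a median of -0.91 and the 31 longer ones -0.64 in WT colons at D19, and -1.22 and -0.88 in KO colons at D80. Over all genes tested that have a length, rho was 0.19 and 0.23, but there length was all exon bases of a gene together, so the measures differ. With a per-library trend on this exon length taken out, 66 members were still called lower in WT colons at D19 (median -0.71), where 21.4% of all genes were. In KO colons at D80, 70 were (median -0.93), where 24.3% of all genes were. That trend need not remove the relation with the length of the principal transcript. Of the 44 accessory subunits of complexes I, III and IV, 11 have transcripts of 1000 nt or more.

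**Figure D4:**
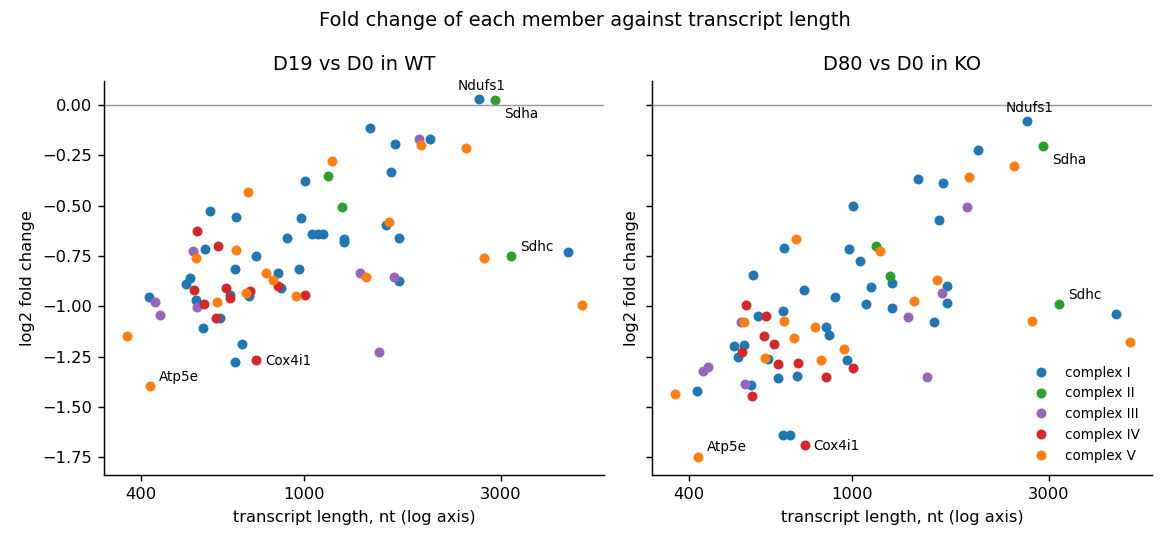
Log2 fold change of each member (vertical axis) against the length of its principal transcript (horizontal axis, nt, log scale) for WT colons at D19 and KO colons at D80, both over D0, colored by complex. *Atp5e* lies lowest in both panels, and *Sdha* and *Ndufs1* lie nearest 0.

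The members with a match to the NRF1 motif moved much as the others did. In WT colons at D19 the 19 with a match had a median of -0.85 and the 44 without one -0.75, and in KO colons at D80 the medians were -1.14 and -1.04. For the ETS motif the medians were -0.76 with a match (16 members) and -0.83 without (47) in WT colons at D19, and -1.07 and -1.05 in KO colons at D80. These are descriptions, and no difference between them was tested.

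Tumors were compared with D80 colons of the same genotype, to ask how the members stood in the tumor itself. In KO mice, 14 members were higher and 2 lower in tumors with all libraries, where 21.8% of all genes were called higher and 24.7% lower. With the mouse as a replicate block 0 members were called, where 10.6% of all genes were called higher and 18.3% lower. Without mouse 544's tumor, 21 were higher and 6 lower, where 27.8% of all genes were called higher and 28% lower. With the block as well 27 were higher and 4 lower, where 24.7% of all genes were called higher and 26.1% lower. In WT mice, 0 members were higher and 10 lower with all libraries, where 12.4% of all genes were called higher and 17.2% lower. Without mouse 581's colon, 1 was higher and 21 lower, where 26.2% of all genes were called higher and 28.7% lower. With the block as well 1 was higher and 14 lower, where 22.7% of all genes were called higher and 26.4% lower. Without these libraries the 21 of 75 higher in KO and the 21 of 75 lower in WT mice were close to the shares of all genes, so they are no result about the members as a set. The median was 0.57 in KO and -0.77 in WT mice with all libraries, and 0.12 and -0.11 without them.

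Across the members, without the libraries that stand apart, the tumor effect in KO mice followed that in WT mice (Pearson's r 0.97 across 75 genes, as a description). With all libraries r was 0.27. The comparisons share no library. The correlation over all genes was not computed, so the value is not read as particular to the members. *Ndufa4*, first named as a complex I protein and later assigned to complex IV, was the 1 member called higher in both genotypes. It had 257 and 257 CPM in KO tumors without mouse 544, against 133, 136, 136 and 135 CPM in KO D80 colons (log2 fold change 0.89, SE 0.07, adjusted p = 0.000465). WT tumors had 279, 239, 228, 195 and 246 CPM, against 125, 131 and 136 CPM in WT D80 colons without mouse 581 (0.76, SE 0.12, adjusted p = 0.000976). With all libraries it was 1.90 (SE 0.49, adjusted p = 0.0153) in KO, and not called in WT mice. *Ndufa4* (chromosome 6, 11900292 to 11907497, minus strand) had 255, 309, 317 and 277 CPM in KO and 374, 245, 252 and 211 CPM in WT colons at D0, so tumors lay near the D0 range.

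The 6 members called lower in tumors of both genotypes, without the libraries that stand apart, were *Cox7b*, *Ndufs1*, *Sdha*, *Sdhb*, *Uqcrb* and *Uqcrc2*. They are 100% of the KO list and 28.6% of the WT list. Of all genes, 28% were called lower in KO and 28.7% in WT mice in these fits. The share of all genes called lower in both was not computed, so no conclusion is drawn from the overlap. *Sdha* had 236 and 212 CPM in KO tumors, against 288, 309, 276 and 311 CPM in KO D80 colons (log2 fold change -0.45, SE 0.10, adjusted p = 0.00684). WT tumors had 242, 215, 226, 243 and 207 CPM, against 338, 312 and 367 CPM in WT D80 colons (-0.69, SE 0.09, adjusted p = 0.000464). *Sdha* and *Ndufs1*, which were not called in the comparisons of D19 or D80 with D0, fell in tumors of both genotypes, and they were called lower with all libraries as well. *Ndufs1* had 74.8, 72 and 52.8 CPM in KO tumors, against 94.9, 104, 97.8 and 95.6 CPM in KO D80 colons (-0.59, SE 0.14, adjusted p = 0.0102), and 90.3, 68.3, 73.4, 71.4 and 70.2 CPM in WT tumors, against 110, 109, 124 and 120 CPM in WT D80 colons (-0.77, SE 0.16, adjusted p = 0.00517). No tumor reached the level of any D80 colon in either gene.

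*Cox7b*, a small subunit of complex IV (chromosome X, 106015700 to 106022450, plus strand), had the largest fall of the members in tumors of each genotype without the libraries that stand apart. With all libraries it had a log2 fold change of 0.37 in KO tumors (SE 0.49, adjusted p = 0.557). It had 149 and 142 CPM in KO tumors without mouse 544, which had 545 CPM, against 205, 251, 221 and 210 CPM in KO D80 colons (-0.65, SE 0.11, adjusted p = 0.00323). WT tumors had 163, 125, 148, 153 and 127 CPM, against 249, 237 and 274 CPM in WT D80 colons without mouse 581, which had 754 CPM (-0.93, SE 0.11, adjusted p = 0.000288, and -1.57, SE 0.38, adjusted p = 0.0114 with all libraries). Without mouse 581, 28.7% of all genes were called lower in WT tumors, and no difference between the complexes was tested. In that fit all 4 members of complex II were lower (median -0.49), and 7 of 11 of complex IV. Lower as well were 5 of 35 members of complex I, 3 of 8 of complex III and 2 of 17 of complex V. Among those higher in KO tumors without mouse 544 were *Ndufb7*, an accessory subunit of complex I, at 90.9 and 80.5 CPM in KO tumors, against 54.1, 57.4, 56.3 and 60.2 CPM in KO D80 colons (0.55, SE 0.09, adjusted p = 0.00225), and *Atp5d*, the delta subunit of the ATP synthase stalk (0.54, SE 0.11, adjusted p = 0.00494). *Atp5g2*, a c-ring subunit, and *Uqcrq* of complex III were called as well (0.43, SE 0.08, adjusted p = 0.00422, and 0.39, SE 0.09, adjusted p = 0.00786), but 35.8% of the 75-base stretches of *Atp5g2* also occur in other annotated genes, so its counts are uncertain.

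**Figure D5:**
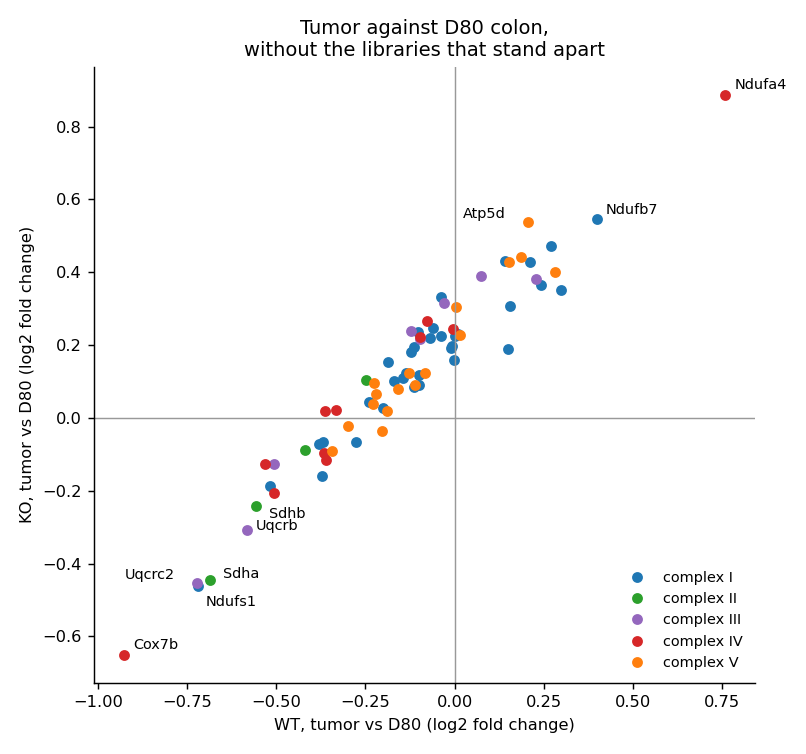
Log2 fold change of tumor over D80 colon for each member in KO (vertical axis) against WT mice (horizontal axis), without the libraries that stand apart and colored by complex. *Ndufa4* lies at the top right (0.89 in KO, 0.76 in WT) and *Cox7b* at the bottom left (-0.65 and -0.93), with *Sdha*, *Ndufs1* and *Uqcrc2* next to it.

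Over the 32 libraries most members moved together. The most like the mean of the others in log2 CPM were *Atp5o*, of the ATP synthase peripheral stalk (Pearson's r 0.995, with 34.2% of its 75-base stretches shared with other genes), *Atp5h* of the same stalk (0.991) and *Ndufa3* of complex I (0.989). The least like were *Ndufa10* (-0.14), *Ndufs1* (0.11) and *Sdha* (0.31). In the 29 other libraries *Ndufa10* had 0.43, so its low value rests on the libraries that stand apart, while *Ndufs1* had 0.16 and *Sdha* 0.36. The points share library depth and tissue composition.

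The other genes of the pathway were described from lists. The 13 OXPHOS mRNAs of mitochondrial DNA, the partners of the members in complexes I, III, IV and V, were all lower in WT colons at D19 (13 of 13, median -0.98) and in KO colons at D80 (13 of 13, median -1.31). With all libraries 0 of 13 were called in KO colons at D19 and 2 of 13 were lower in WT colons at D80. Without the libraries that stand apart, 9 of 13 were lower in KO colons at D19 and 13 of 13 in WT colons at D80, and 9 of 13 were lower in KO and 7 of 13 in WT tumors (medians -0.64 and -0.87). In these fits 10.7%, 23.3%, 28% and 28.7% of all genes were called lower, in turn. With all libraries 0 of 13 were called in KO tumors, where the median was 0.43, and 9 of 13 were lower in WT tumors (median -1.86). Of 43 assembly factors tested, 2 were higher and 22 lower in WT colons at D19, and 2 higher and 28 lower in KO colons at D80. In these comparisons 22.6% and 24.8% of all genes were called lower, and 24.2% and 28.4% higher. *Coa3*, an assembly factor of complex IV, fell by 1.13 in WT colons at D19 (SE 0.07, adjusted p = 2.34e-05) and by 1.503 in KO colons at D80 (SE 0.08, adjusted p = 2.48e-06). *Sdhaf1*, which helps to build iron-sulfur clusters into complex II, rose in tumors, to 14.9, 15.0 and 21.6 CPM in KO tumors, against 4.94, 3.11, 3.39 and 4.27 CPM in KO D80 colons (2.13, SE 0.24, adjusted p = 0.000631), and by 1.40 in WT tumors (SE 0.27, adjusted p = 0.00394).

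Of the 13 enzymes of the tricarboxylic acid cycle, which feeds electrons to complexes I and II, 4 were lower in WT colons at D19 and 10 in KO colons at D80, with medians of -0.16 and -0.41 that were smaller in size than those of the members. Of all genes, 22.6% and 24.8% were called lower in these comparisons. In tumors 4 of the 13 enzymes were lower in KO and 6 in WT mice with all libraries, and 6 and 7 without those that stand apart, with *Suclg2*, a subunit of succinyl-CoA ligase, at -0.99 (SE 0.16, adjusted p = 0.00212) in KO and -1.33 (SE 0.22, adjusted p = 0.00192) in WT mice. Of all genes, 24.7% and 17.2% were called lower in tumors with all libraries, and 28% and 28.7% without those that stand apart. Outside the naming rule, *Cyc1*, the cytochrome c1 of complex III, fell by 0.96 (SE 0.10, adjusted p = 0.000109) in WT colons at D19 and by 1.16 (SE 0.11, adjusted p = 2.59e-05) in KO colons at D80. *Cox7a1*, the muscle isoform of a complex IV subunit, fell by 1.47 (SE 0.20, adjusted p = 0.000366) and 2.51 (SE 0.17, adjusted p = 5.53e-06) in the same comparisons. *Ndufa4l2*, a hypoxia-induced paralog of *Ndufa4*, was low in all groups and higher in tumors, by 1.42 in KO (SE 0.36, adjusted p = 0.0145) and 2.17 in WT mice (SE 0.42, adjusted p = 0.00424).

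Among 12 regulators, *Esrra*, which encodes ERRα, fell in WT colons at D19 to 76, 82.1, 96 and 93.7 CPM, against 112, 144, 159 and 152 CPM at D0 (-0.75, SE 0.12, adjusted p = 0.000872). In KO colons it fell at D80 to 83.1, 75.4, 87.1 and 79.6 CPM, against 139, 143, 150 and 150 CPM at D0 (-0.89, SE 0.08, adjusted p = 2.41e-05). It was the 1 regulator also called in WT colons at D80 with mouse 581 included (-0.73, SE 0.18, adjusted p = 0.0329). *Tfam*, which packages and transcribes mitochondrial DNA, fell by 0.33 in WT colons at D19 (SE 0.09, adjusted p = 0.0105) and 0.48 in KO colons at D80 (SE 0.09, adjusted p = 0.00132), and *Polrmt*, the mitochondrial RNA polymerase, by 0.42 (SE 0.12, adjusted p = 0.0172) and 0.42 (SE 0.09, adjusted p = 0.00291). *Gabpa*, an ETS-family factor, rose by 0.48 (SE 0.08, adjusted p = 0.00085) and 0.41 (SE 0.09, adjusted p = 0.0047). *Nrf1*, *Yy1*, *Tfb1m*, *Tfb2m*, *Pprc1* and *Gabpb1* were not called in either. The coactivator *Ppargc1a* rose in WT colons at D19 (0.67, SE 0.21, adjusted p = 0.0227), and *Ppargc1b* fell in KO colons at D80 (-0.68, SE 0.16, adjusted p = 0.00515) and in KO tumors (-1.83, SE 0.32, adjusted p = 0.00324).

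Markers of several cell types of the colon also changed between stages. Leukocyte markers rose at D19 and D80 in both genotypes (7 of 7 in each comparison), and their summed level was 501.7 to 591 CPM in WT D19 colons, against 46.5 to 88.4 CPM in WT D0 colons. It was 686 to 944 CPM in KO D80 colons, against 69.0 to 93.7 CPM in KO D0 colons. Smooth muscle markers fell in WT colons at D19 (9 of 9, summed 3968 to 6183 CPM, against 6721 to 12797 CPM at D0) and in KO colons at D80 (9 of 9, 2219 to 3500 CPM, against 4821 to 9166 CPM at D0). Surface colonocyte markers fell as well (4 of 8 in WT at D19, summed 3825 to 5125 CPM, against 7072 to 11646 CPM at D0, and 8 of 8 in KO at D80, 2588 to 3963 CPM, against 6625 to 11723 CPM at D0). The pan-epithelial markers had medians of -0.21 and -0.16 in these comparisons. Markers of fibroblasts rose (6 of 6 in both). In the KO D19 colon of mouse 811 the members summed to 30464.7 CPM, against 12619.1 to 16335.1 CPM in its group mates. Its smooth muscle markers were at 3192 CPM, against 2888 to 5421 CPM, and its surface colonocyte markers at 3958 CPM, against 3492 to 3652 CPM. Its goblet cell markers were the highest of the group, at 20850 CPM, against 10569 to 14690 CPM. Its fibroblast markers were the lowest, at 1507 CPM, against 1985 to 5738 CPM.

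Tumors differed further in their cell types. Smooth muscle markers were at 150.7 to 248.6 CPM in KO tumors, against 2219 to 3500 CPM in KO D80 colons, and at 155 to 734 CPM in WT tumors, against 3567 to 4576 CPM in WT D80 colons (9 of 9 lower in both, in each case). Squamous markers were at 352 to 529 CPM in KO tumors, against 2.68 to 23.4 CPM in KO D80 colons, and at 108 to 1170 CPM in WT tumors, against 7.13 to 16.3 CPM in WT D80 colons (5 of 5 higher in both). Goblet cell markers fell in both (7 of 7), and so did adipocyte markers (5 of 5). Surface colonocyte markers summed to 423 to 906 CPM in KO tumors, against 2588 to 3963 CPM in KO D80 colons. In WT tumors they summed to 722 to 1697 CPM, against 3615 to 7148 CPM in WT D80 colons. *Cd3e*, *Trp63* and 3 of the 5 adipocyte markers had no count in at least 1 library, and all markers of smooth muscle, surface colonocytes, goblet cells, fibroblasts and the pan-epithelial list were counted in every library. The part of these cell types in the members' results was not tested.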

How the data were processed

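Total RNA of whole colon or tumor was sequenced as 75-nt single-end reads, with 1 library per mouse and tissue. The authors deposited raw read counts per gene; the submitters' processing notes name FastQC 0.11.5, STAR, Subread and mm10, while whether the counting used strand is not given in the sources used here. Groups came from the sample labels. The members and lists were chosen with earlier results of these data known. Counts were tested with edgeR 4.0.16 (quasi-likelihood, TMM, filterByExpr) in R 4.3.3, on the libraries of the groups compared only, with Benjamini-Hochberg adjustment over all genes tested and a call at an adjusted p under 0.05. The scripts were tested on simulated data. Alternatives were DESeq2 1.42.0, other scalings, filters and fits, a gene length trend, blocks and left-out libraries, of which the fits without KO D19 mice 811 and 813, without edgeR's legacy option and with the mouse block but without the libraries that stand apart were chosen after seeing the data, and the fits without the 3 libraries that stand apart were planned with earlier results known, not blind to them. Named genes were 9 core subunits, the called member with the smallest p in each complex and direction, the 3 largest changes each way at an unadjusted p under 0.05, the 3 most and 3 least alike, the regulators and the called genes with the smallest p of the other lists; some are not reported here, not every gene this rule gives is printed, and others were named after their values were seen. The main fits of tumor against D80 colon used group means and did not pair by mouse, although 3 mice of each genotype gave both tissues. The mouse entered only in the alternatives named as a replicate block. The deviations of the 2 tissues of a mouse correlated at 0.0344 to 0.198 over 21468 genes.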

Additional observations from a re-analysis of the deposited data

Results flagged for a closer look

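A library far from the others of its group was looked for in 42 groups of summed levels and 63 groups of single core genes, all of 4 or 5 libraries, and chance alone marks about 1 in 20. Of 20 such values, 13 were the WT D80 colon of mouse 581 and 4 the KO D19 colon of mouse 811. The sums and single genes overlap, so these values are not independent and cannot be set against 1 in 20. KO tumors (n = 3) were not examined in this way, so mouse 544 could not be marked. In mouse 581 the members together had 34175 CPM, against 12360.9 to 14097.6 CPM in the other WT D80 colons. Its sums were 7350.68 CPM for complex I, 1779.68 for complex II, 3774.24 for complex III, 7991.32 for complex IV and 13279.1 for complex V. Its *Cox4i1* was at 1202.42 CPM, *Cox5a* at 278.885, *Ndufv1* at 310.154, *Sdhb* at 364.072, *Uqcrfs1* at 434.835, *Atp5a1* at 2419.71 and *Atp5b* at 2630.59 CPM, each the highest of 4. In mouse 811 complex II had 1683.04 CPM and complex V 11832.1 CPM, against 786.669 to 848.109 and 5233.1 to 5896.41 CPM in the other KO D19 colons, with *Sdhb* at 346.032 CPM and *Uqcrfs1* at 393.932 CPM.

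The other 3 values were small departures. Complex II had 837.872 CPM in the WT D19 colon of mouse 685, against 918.72 to 930.959 CPM in the others. Complex III had 2350.62 CPM in the WT D0 colon of mouse 927, against 2514.9 to 2534.22 CPM. *Cox5a* had 101.493 CPM in the KO D80 colon of mouse 543, against 109.227 to 109.889 CPM.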

How the results depend on the processing

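No result of the members changed direction while called. In KO colons at D19 the count of members called was 0 with RLE size factors, 0 with a filter of at least 1 count, 0 with a fold change over 2, 0 with the gene length trend, 59 without the libraries that stand apart and 68 without mice 811 and 813 (median -0.99). Of all genes, 3.67%, 1.73%, 2.52%, 4.74%, 10.7% and 17% were called lower in these fits, in turn. In WT colons at D19 it was 23 in a fit of all 32 libraries and 11 with a fold change over 2, where 6.09% and 4.04% of all genes were called lower. The median was -0.55 with library totals and -0.71 with the length trend. In KO colons at D80 it was 45 with a fold change over 2, where 7.63% of all genes were called lower. The median was -0.76 with library totals and -0.93 with the length trend. In WT colons at D80 it was 9 with library totals, 1 in the fit of all 32, 4 with the length trend and 67 without mouse 581 (median -0.83). Of all genes, 2.81%, 7.6%, 6.48% and 23.3% were called lower in these fits, in turn. Library totals also moved the median of all genes, by 0.27 in WT colons at D19 and 0.33 in KO colons at D80, where 62 and 65 members were still called lower; all genes then split into 7503 higher and 2039 lower, against 4496 and 4198 with TMM, in WT colons at D19, and into 8286 and 2442, against 5411 and 4729, in KO colons at D80.

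In KO tumors the count was 32 with DESeq2 (30 higher and 2 lower, against 25.7% and 26.1% of all genes). It was 3 with a fold change over 2 (3 and 0, against 10.3% and 16.4%). Without mouse 544 it was 27 (21 and 6, against 27.8% and 28%, median 0.12). With the mouse as a replicate block it was 0, against 10.6% and 18.3%. With the block and without mouse 544 it was 31 (27 and 4, against 24.7% and 26.1%, median 0.18). In WT tumors it was 16 with DESeq2 (0 higher and 16 lower, against 16.4% and 20.4% of all genes). It was 22 in the fit of all 32 (0 and 22, against 21.9% and 21.7%) and 5 with a fold change over 2 (0 and 5, against 8% and 13.5%). It was 21 with the length trend (1 and 20, against 15.5% and 19.6%) and 22 without mouse 581 (1 and 21, against 26.2% and 28.7%, median -0.11). The median was -0.21 with library totals, -0.082 with the replicate block and -0.084 with the block and without mouse 581. Library totals split all genes into 3012 higher and 4306 lower in KO tumors and 3448 and 2006 in WT tumors. Between the genotypes, where 0 members were called under each of these, the median was 0.090 at D19 without mouse 811 and -0.077 without 811 and 813, -0.13 at D80 without mouse 581 and -0.10 when blocked on the label prefix, and 0.064 in tumors without mouse 544. The median interaction was -0.0062 at D19 without mouse 811 and -0.20 without 811 and 813, -0.38 at D80 with library totals and -0.25 without mouse 581, and in tumors 0.61 with library totals, 0.92 with the length trend, 0.60 with the replicate block, 0.21 without mice 581 and 544 and 0.23 with both. The cause of these shifts was not tested.

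With each library left out in turn, the calls in KO colons at D19 ran from 0 to 59 (59 without mouse 811; medians -0.75 to -0.17), in WT colons at D19 from 66 to 69 (-0.87 to -0.77), in KO colons at D80 from 68 to 73 (-1.14 to -1.04) and in WT colons at D80 from 0 to 67 (67 without mouse 581; -0.83 to -0.044). In KO tumors they ran from 2, without the D80 colon of mouse 527 or 543, to 37, without the tumor of mouse 543 (0.12 to 0.80), and in WT tumors from 4, without the tumor of mouse 534, 541 or 542, to 22, without mouse 581 (-0.94 to -0.11). The shares of all genes are not printed for these fits, so the ranges show only how far the counts depend on 1 library. The medians between genotypes ran from 0.09 to 0.20 at D0, 0.090 to 0.75 at D19, -0.98 to -0.13 at D80 and 0.064 to 0.81 in tumors, and the interactions from -0.0062 to 0.59, -1.05 to -0.25 and 0.74 to 1.56, with 0 members called in each.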
